A study of Mus musculus with 6 samples.

Results

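The SIBLING proteins are a family of small, acidic, secreted phosphoproteins of mineralized tissue, and 5 of their genes (Spp1, Ibsp, Dmp1, Mepe and Dspp) were followed here together with 3 genes that act beside them in bone cells, Phex, Pdpn and Fam20c. Members were taken by gene symbol, and all 8 of 8 were among the 24346 symbols measured. None was at 0 in every library, and all 8 passed the filter of a mean of at least 1 FPKM (fragments scaled to transcript length and to the mapped fragments of the library), as did 14766 symbols in all. The tissue was the nasomaxillary complex, the bone, cartilage and soft tissue of the nose and upper jaw, of untreated mouse embryos at E17.5. The 3 control libraries came from Pth1r f/f embryos, whose floxed Pth1r gene encodes the receptor shared by PTH and PTHrP, hormones of bone and cartilage. Wnt1-Cre:Pth1r f/f embryos gave the 3 mutant libraries, so both groups carry the floxed alleles. Wnt1-Cre drives recombination in the neural crest, the source of most facial bone and cartilage, so other cells of the dissection keep the floxed gene whole. The controls carry no Cre, so an effect of the transgene and one of the lost receptor cannot be told apart. It is not given in the labels which exons of Pth1r are floxed, or whether each library is a separate embryo or litter, so the p-values reflect the spread of these libraries alone, which may be technical. Replicate numbers follow the order of deposition, only name the libraries and pair none across the groups.

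SIBLING proteins are laid down in bone and dentin matrix, where they bind calcium, collagen and cell-surface integrins and take part in starting or restraining mineral growth. Much of their activity depends on phosphate groups added in the Golgi by the kinase FAM20C. Osteocytes, the cells buried in bone, make DMP1, MEPE and the membrane peptidase PHEX, which together act on phosphate balance, and young osteocytes carry the membrane protein podoplanin (Pdpn) as they grow their processes.

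The SIBLING genes lie side by side on the plus strand of chromosome 5, in the order Dspp, Dmp1, Ibsp, Mepe and Spp1, between positions 104170712 and 104441050 (GRCm38, the same coordinates as mm10). This stretch of 270.3 kilobases held no other tested gene. Fam20c is on the plus strand of the same chromosome at 138754514 to 138810077. Pdpn is on chromosome 4 at 143267431 to 143299564 and Phex on chromosome X at 157162075 to 157415312, both on the minus strand.

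To show what lies before these genes, the 170 bases upstream of the start site are printed for 3 SIBLING genes, of which Spp1 and Dmp1 had lower and Mepe higher mean levels in mutant libraries, and for Phex, the other member with a higher mean, a choice made after the values were seen. The sequences are from RefSeq (GRCm38.p6), whose promoter table matched 7 of the 8 members, by the start nearest to the GENCODE gene start. Capitals mark every match, on either strand, to TGTGGT (bound by RUNX factors), CCAAT, and TGACG (the core of sites bound by cAMP-responsive factors), and no 2 matches overlapped.
Spp1, plus strand, chr5:104434941-104435110: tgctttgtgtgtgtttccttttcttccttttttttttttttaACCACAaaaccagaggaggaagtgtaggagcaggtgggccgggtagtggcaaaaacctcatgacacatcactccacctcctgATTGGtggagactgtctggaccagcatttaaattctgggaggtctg
Dmp1, plus strand, chr5:104202447-104202616: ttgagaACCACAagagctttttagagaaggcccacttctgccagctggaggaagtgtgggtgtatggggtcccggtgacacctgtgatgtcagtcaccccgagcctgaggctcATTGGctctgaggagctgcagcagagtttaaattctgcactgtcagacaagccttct
Mepe, plus strand, chr5:104325159-104325328: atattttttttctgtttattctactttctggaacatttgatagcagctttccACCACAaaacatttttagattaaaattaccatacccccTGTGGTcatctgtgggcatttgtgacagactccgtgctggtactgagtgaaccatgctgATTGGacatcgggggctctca
Phex, minus strand, chrX:157415287-157415456: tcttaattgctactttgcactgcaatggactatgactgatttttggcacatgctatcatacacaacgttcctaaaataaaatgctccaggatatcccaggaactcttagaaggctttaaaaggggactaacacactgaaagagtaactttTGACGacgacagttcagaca

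All 3 SIBLING sequences held CCAAT on the minus strand (read as ATTGG), beginning 46 bases before the start in Spp1, 57 in Dmp1 and 21 in Mepe. Ibsp and Fam20c, whose RefSeq starts lie 116 and 567 bases from those of GENCODE, are not shown. Ibsp held CCAAT on the same strand at 54 bases, and Fam20c on the plus strand at 73 bases. Pdpn, also searched and not shown, held no match to any of the motifs. Dspp was the member without a match in the promoter table. Among 32851 RefSeq windows of this length, 26.6% held CCAAT on either strand. The RUNX letters occurred in Spp1 (128 bases), Dmp1 (164 bases) and at 118 and 80 bases in Mepe, against 9.52% of windows with 1 or more and 0.636% with 2 or more matches. TGACG occurred in Phex, Ibsp and Fam20c, against 14.4% of windows. The window length and the set of motifs were settled after matches had been seen, so these shares are not a fair comparison for the members. A match of letters is a description and not a bound site.

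Each library gave between 14620 and 14787 genes at 1 FPKM or more. The spacing of low FPKM values put the relative depth between 0.671 in mutant replicate 3 and 1.11 in control replicate 2, with control replicate 1 set to 1. The 3 controls and mutant replicate 1 had Xist between 74.1 and 77.1 FPKM and Ddx3y at 0 FPKM. Mutant replicates 2 and 3 had the Y-linked Ddx3y at 15.1 and 14.1 FPKM, so sex was not balanced between the groups. Osteoblast genes were abundant in every library, with Col1a1 between 3616 and 5328 FPKM and Sp7 between 59.2 and 82.8 FPKM, and no gene of the 13 related lists was at 0 in all 6. Pth1r summed over the whole gene had a log2 change of 0.15 ± 0.12 (SE, limma adjusted p = 0.686), which does not check the genotype labels.

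The comparison asked how these genes differ between mutant and control tissue. Mepe and Phex were higher in every mutant library than in every control library, Spp1 and Fam20c had lower means with some overlap, Ibsp, Dmp1 and Pdpn had overlapping groups with mutant to control ratios of 0.939, 0.865 and 0.954, and Dspp varied most between libraries. No member passed the test: limma on log2(FPKM + 1) called 0 of 8 at an adjusted p under 0.05, against 0.264% of all 14766 tested genes (39 genes), 0.0610% called higher and 0.203% called lower. At an unadjusted p under 0.05 there were 2 of 8, Mepe and Phex, against 11.3% of tested genes. Groups did not overlap for 2 of 8 members, both higher in mutant, against 17.0% of tested genes in either direction and 7.85% with mutant higher. The median log2 change was -0.13 over the 8 members and -0.0020 over all tested genes.

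**Figure D1:**
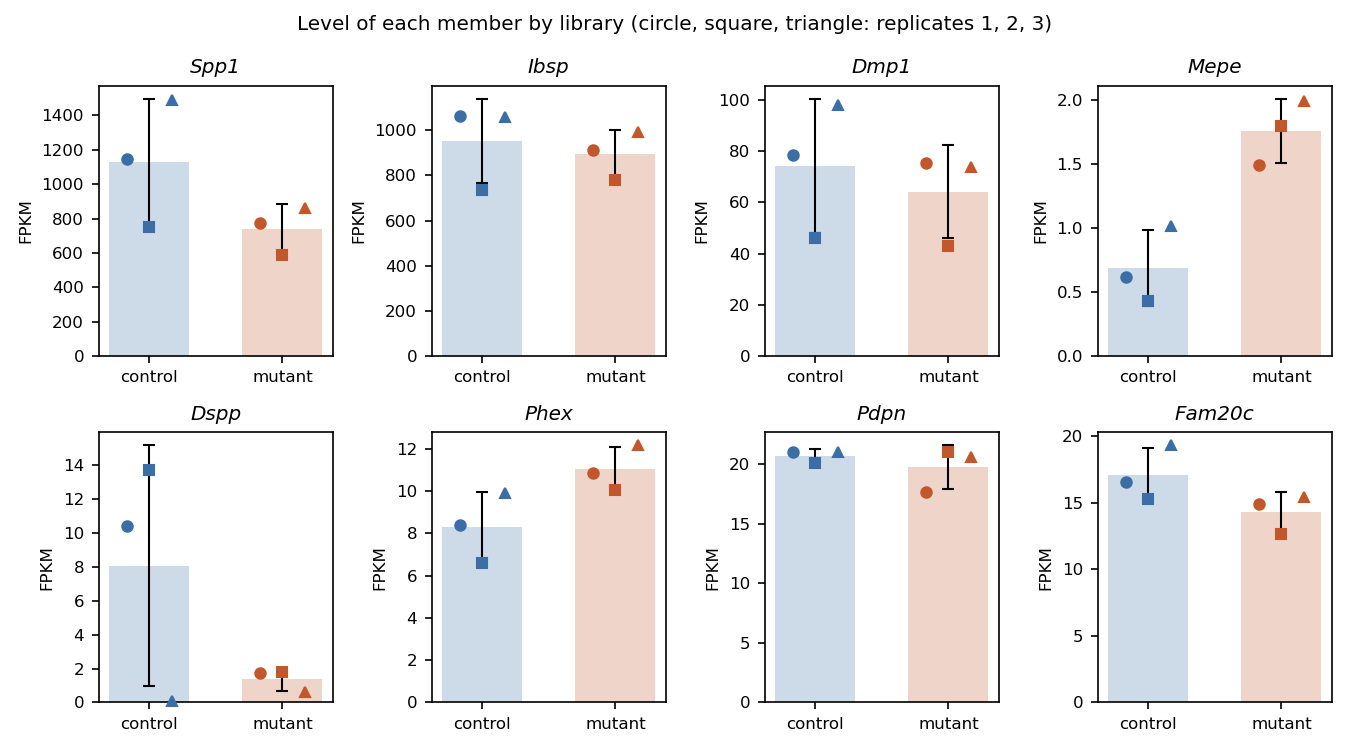
FPKM of each member in the 3 control and 3 mutant libraries, 1 panel per gene on its own linear axis from 0. Points are libraries, bars are group means and error bars are SD (n = 3). All mutant points of Mepe and Phex lie above all control points, and control replicate 3 of Dspp lies at 0.106 FPKM beside 10.4 and 13.7 FPKM in the other controls.

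Spp1 encodes osteopontin, a phosphoprotein of bone matrix that tethers cells and slows mineral growth, and it is also made by osteoclasts, macrophages and hypertrophic chondrocytes. Spp1 measured 1146, 752 and 1488 FPKM in the controls (replicates 1 to 3) and 774.5, 587 and 862 FPKM in the mutants (same order). Control replicates 1 and 3 were above every mutant library, while control replicate 2 lay inside the mutant range. The means were 1129 ± 368 FPKM and 741 ± 141 FPKM (SD, n = 3 each), and the log2 change was -0.57 ± 0.25 (SE, 95% interval -1.16 to 0.018, limma adjusted p = 0.449). Without control replicate 2 the log2 change was -0.83 ± 0.18 (limma adjusted p = 0.256, the lowest of 0.256 to 0.999 over the alternatives). Spp1 stood between rank 34 and rank 114 of all symbols in each library.

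Ibsp encodes bone sialoprotein, an early matrix protein of osteoblasts that binds collagen and nucleates mineral. Its level was 1062, 738 and 1060 FPKM in the controls (replicates 1 to 3) and 911, 780.0 and 995 FPKM in the mutants (same order). The groups overlapped, and the lowest value of all was control replicate 2. The log2 change was -0.08 ± 0.16 (SE, limma adjusted p = 0.900), with a 95% interval from -0.45 to 0.29. Its sign turned on leaving out control replicate 1 or 3 or mutant replicate 2.

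Dmp1 encodes dentin matrix protein 1, which osteocytes and odontoblasts secrete and whose loss causes a phosphate-wasting rickets. Dmp1 measured 78.4, 46.2 and 98.1 FPKM in the controls (replicates 1 to 3) and 75.5, 43.1 and 74.0 FPKM in the mutants (same order). The groups overlapped, with mutant replicate 2 lowest and control replicate 3 above every mutant library. The log2 change was -0.18 ± 0.31 (SE, limma adjusted p = 0.871), and its 95% interval ran from -0.91 to 0.54, so changes within it could not be told from none with these libraries. Leaving out control replicate 3 or mutant replicate 2 turned its sign.

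Mepe encodes matrix extracellular phosphoglycoprotein, an osteocyte protein from which an acidic peptide that inhibits mineralization is cut. It had the lowest control mean of the 8, with 0.621, 0.431 and 1.02 FPKM in the controls (replicates 1 to 3) and 1.496, 1.80 and 1.99 FPKM in the mutants (same order). Every mutant library was above every control library. Its mean was 0.690 ± 0.300 FPKM in control and 1.76 ± 0.2501 FPKM in mutant (SD, n = 3 each), a ratio of 2.55. The log2 change was 0.72 ± 0.16 on the log2(FPKM + 1) scale, which understates changes of genes this low (95% interval 0.34 to 1.10, limma adjusted p = 0.191). With a pseudocount of 0.1 it was 1.30 ± 0.32 (limma adjusted p = 0.237, and 0.161 to 0.999 over the alternatives).

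The low values of Mepe are whole multiples of 1 unit in all 6 libraries, to within 0.00055 of a whole number after allowing for library size. By that spacing they stand for 13, 10 and 20 fragments in control replicates 1 to 3 and 32, 34 and 28 fragments in mutant replicates 1 to 3. The exact 95% Poisson intervals were 12.2 to 30.9 fragments for control replicate 3, the highest control, and 18.6 to 40.5 fragments for mutant replicate 3, the lowest mutant count. These intervals overlap, but they cover counting error only and are not scaled to depth. Relative depth was 0.671 in mutant replicate 3 and 0.938 in control replicate 3. After scaling, mutant replicate 3 had the highest Mepe level of all (1.99 FPKM), so the overlap of raw counts does not compare the levels.

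Dspp encodes the precursor of dentin sialoprotein and dentin phosphoprotein, the main product of odontoblasts, the dentin-forming cells of teeth. Dspp measured 10.4, 13.7 and 0.106 FPKM in the controls (replicates 1 to 3) and 1.74, 1.77 and 0.594 FPKM in the mutants (same order). The highest and the lowest of the 6 values were both controls. The same spacing put these at 628, 914 and 6 fragments in control and 107, 96 and 24 fragments in mutant (largest gap to a whole number 0.0136), and the exact 95% Poisson intervals of control replicates 1 and 3, 580 to 679 and 2.2 to 13.1 fragments, do not overlap. The log2 change was -1.31 ± 0.91 (SE, limma adjusted p = 0.646). Without control replicate 3 it was -2.50 ± 0.27, at a limma adjusted p of 0.049997, just under the threshold, so the absence of a call rests on that library. Without control replicate 1 or 2 it was -0.81 ± 0.996 or -0.63 ± 0.91 (limma adjusted p of 0.858 and 0.853, and up to 0.999 over the alternatives).

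Of 5 genes of the enamel-forming epithelium, the other secretory cell layer of the tooth, all 5 were, like Dspp, lowest among the controls in replicate 3, but they differed in the mutants. Amelx, the gene of the main enamel matrix protein amelogenin, measured 81.4, 84.4 and 0.880 FPKM in the controls (replicates 1 to 3) and 1.5, 0.149 and 0 FPKM in the mutants (same order). Enam, which encodes enamelin, measured 3.46, 4.83 and 0.0142 FPKM in control and 0.286, 0.132 and 0.158 FPKM in mutant. Ambn, the gene of ameloblastin, measured 24.3, 30.4 and 2.81 FPKM in control and 14.8, 12.4 and 11.2 FPKM in mutant. Control replicates 1 and 2 were highest and control replicate 3 lowest for Ambn, Enam and Dspp alike. For Amelx, control replicate 3 was instead between mutant replicates 1 and 2. Odam and Amtn, which encode later enamel-organ proteins and were named after their values were seen, did not share this pattern in the mutants. Odam measured 0.857, 1.26 and 0.228 FPKM in control and 3.88, 0.712 and 2.23 FPKM in mutant, with its highest values in mutant replicates 1 and 3 (log2 change 0.80 ± 0.39, limma adjusted p = 0.499). Amtn, under the filter and not tested, measured 0.868, 1.17 and 0 FPKM in control and 0.8495, 0.9615 and 0 FPKM in mutant. The summed level of the 5 enamel genes was 3.93 to 122 FPKM in control and 13.6 to 21.3 FPKM in mutant, with 0 of 4 tested genes called and 1 at an unadjusted p under 0.05. Over all tested genes, 11.3% had an unadjusted p under 0.05. Without control replicate 3, 2 of the 4 were called, against 19 of 14770 tested genes. That library was the lowest control for all 5 enamel genes, so its removal narrows their control spread, and no loss of enamel genes is read from these calls. The part of tooth content in the Dspp values was not tested.

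**Figure D2:**
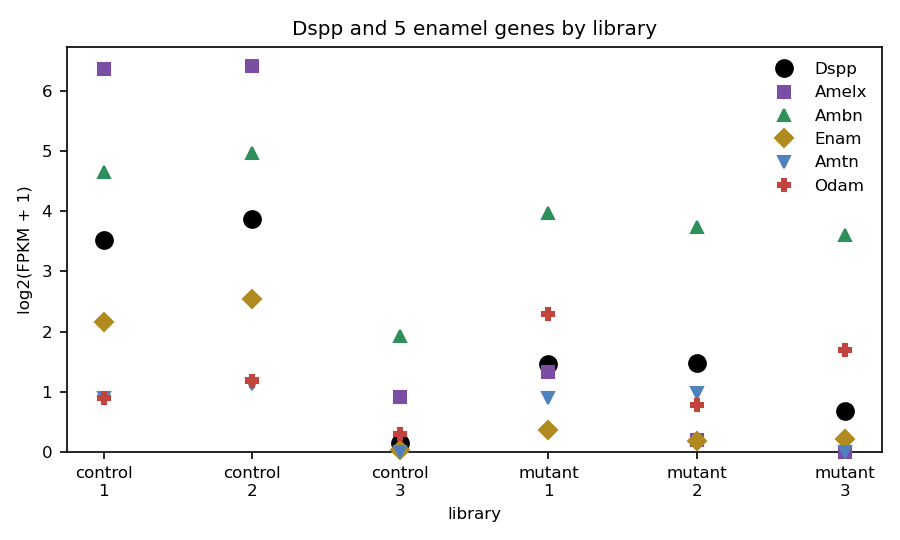
Level of Dspp, the dentin gene, and of the 5 enamel genes Amelx, Ambn, Enam, Amtn and Odam, as log2(FPKM + 1) in each of the 6 libraries. Dspp, Amelx, Ambn and Enam are highest in control replicates 1 and 2, Dspp, Ambn and Enam are lowest in control replicate 3, and Odam is highest in mutant replicates 1 and 3.

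Phex encodes a membrane peptidase of osteoblasts and osteocytes whose loss causes X-linked hypophosphatemia, and which cleaves the acidic peptides of SIBLING proteins. Phex measured 8.40, 6.61 and 9.89 FPKM in the controls (replicates 1 to 3) and 10.9, 10.05 and 12.2 FPKM in the mutants (same order). The groups did not overlap, although mutant replicate 2 exceeded control replicate 3 only narrowly. Mean levels were 8.30 ± 1.64 FPKM and 11.02 ± 1.07 FPKM (SD, n = 3 each), a ratio of 1.33, with a log2 change of 0.38 ± 0.13 (SE, 95% interval 0.067 to 0.70, limma adjusted p = 0.363, and 0.303 to 0.999 over the alternatives). Phex is X-linked and the groups differed in sex. The female mutant (replicate 1, 10.9 FPKM) was above the 3 female controls, and the male mutants lay on either side of it. With sex as a covariate the log2 change was 0.37 ± 0.21 for Phex (limma adjusted p = 0.999) and 0.58 ± 0.23 for Mepe (limma adjusted p = 0.967). For Mepe too, the female mutant (1.496 FPKM) was above the female controls.

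Fam20c encodes the Golgi kinase that phosphorylates SIBLING proteins and other secreted proteins. Its level was 16.6, 15.3 and 19.3 FPKM in the controls (replicates 1 to 3) and 14.9, 12.7 and 15.4 FPKM in the mutants (same order). The groups overlapped by a small margin, since mutant replicate 3 was just above control replicate 2. The log2 change was -0.24 ± 0.10 (SE, 95% interval -0.48 to 0.0059, limma adjusted p = 0.449), and with the osteoblast gene list as a covariate it was 0.12 ± 0.11. Pdpn, which marks young osteocytes and also lymphatic vessels and basal epithelium, measured 21.0, 20.1 and 21.0 FPKM in control and 17.7, 21.0 and 20.6 FPKM in mutant. Mutant replicate 1, the only female mutant, was the lowest, and the log2 change was -0.07 ± 0.07 (95% interval -0.24 to 0.10, limma adjusted p = 0.780). With sex as a covariate it was -0.22 ± 0.070 (limma adjusted p = 0.929).

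**Figure D3:**
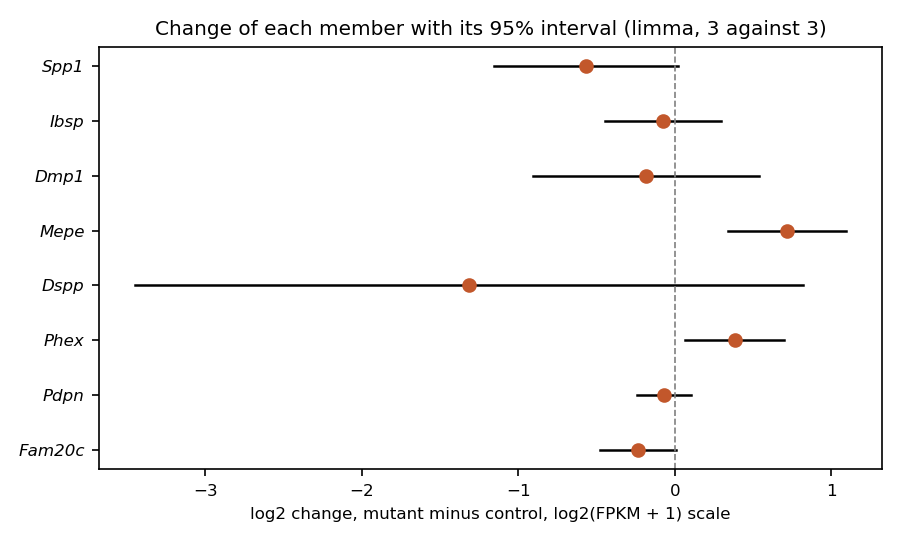
Log2 change of each member, mutant minus control, on the log2(FPKM + 1) scale, with its 95% interval from the limma fit to 3 control and 3 mutant libraries. The intervals of Mepe (0.34 to 1.10) and Phex (0.067 to 0.70) lie above 0 before adjustment, and that of Dspp is the widest of the 8.

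FPKM is per transcript length, so levels can be ordered between genes. In control libraries Spp1 and Ibsp were highest (1129 ± 368 and 953 ± 187 FPKM) and did not differ beyond their spread. Dmp1 followed (74.2 ± 26.2 FPKM), then Pdpn and Fam20c (20.7 ± 0.519 and 17.1 ± 2.06 FPKM). Phex (8.30 ± 1.64 FPKM) and Dspp (8.08 ± 7.10 FPKM) did not differ beyond the spread of Dspp, and Mepe was lowest. In mutant libraries Dspp (1.37 ± 0.670 FPKM) was near Mepe (1.76 ± 0.2501 FPKM), and Ibsp was above Spp1 in all 3.

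A ratio of 2 members within a library does not depend on how the libraries were scaled. Levels were therefore also expressed as a percentage of Ibsp in the same library, a reference chosen after the values were seen because it is abundant and its groups overlapped. Spp1 stood at 108%, 102% and 140.4% of Ibsp in control replicates 1 to 3 and at 85.0%, 75.2% and 86.7% in mutant replicates 1 to 3, so it exceeded Ibsp in every control and in no mutant library. Phex stood at 0.791%, 0.896% and 0.933% in control and 1.19%, 1.29% and 1.22% in mutant. Mepe stood at 0.0585%, 0.0584% and 0.0961% in control and 0.164%, 0.231% and 0.200% in mutant.

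By this ratio the groups did not overlap for 3 of the 7 other members, Spp1 lower and Phex and Mepe higher, and they overlapped for Dmp1, Dspp, Pdpn and Fam20c. Of all tested genes, 3.35% did not overlap by their ratio to Ibsp (1.10% lower and 2.26% higher in mutant), against 17.0% without the ratio. Dividing by Ibsp adds its spread between libraries to genes that do not vary with it and can remove spread from those that do. The share over all genes is therefore not a like measure for bone genes, and no excess of members can be read from it. Phex and Mepe did not overlap without the ratio either. Dmp1 stood at 7.38%, 6.26% and 9.26% of Ibsp in control and at 8.29%, 5.53% and 7.44% in mutant. No test was made of these ratios.

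**Figure D4:**
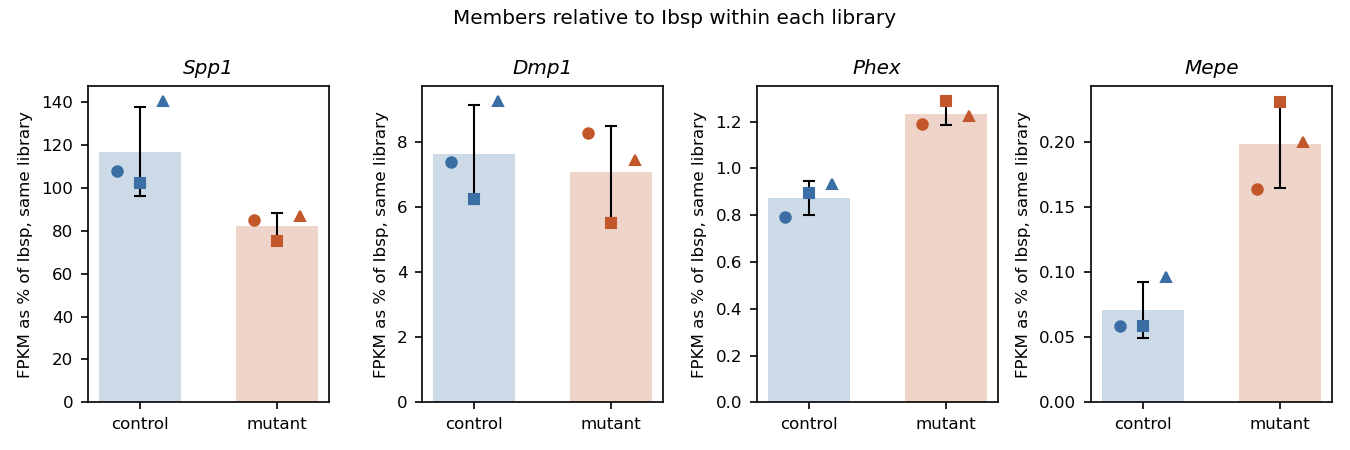
FPKM of Spp1, Dmp1, Phex and Mepe as a percentage of Ibsp in the same library, with group means (bars) and SD (n = 3). Spp1 is above 100% in the 3 controls and at most 86.7% in the 3 mutants, Phex and Mepe are higher in the 3 mutants, and Dmp1 overlaps.

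Other osteoblast genes were followed as a list, and how well it measures bone content in each library was not tested. All 16 genes of the osteoblast list (Runx2, Sp7, Col1a1, Bglap and others, no member among them) had negative log2 changes, against 50.8% of all tested genes, with a median of -0.26. None was called at an adjusted p under 0.05 by limma, and 9 had an unadjusted p under 0.05, against 11.3% of tested genes. In 7 of 16, mutant values were below all control values, against 9.16% of tested genes. The osteocalcin genes Bglap and Bglap2 had the smallest p in the list, differing by -1.41 ± 0.34 and -1.48 ± 0.36 on the log2 scale (limma adjusted p = 0.233 and 0.234). In bulk tissue, fewer cells of a type and less RNA per cell cannot be told apart.

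The mean of the osteoblast list, on the log2 scale relative to the control mean, was 0.03, -0.19 and 0.16 in control replicates 1 to 3 and -0.30, -0.54 and -0.34 in mutant replicates 1 to 3. Spp1 stood at 0.08, -0.53 and 0.45 in control and -0.49, -0.89 and -0.33 in mutant, in the same order as the list within each group except that mutant replicate 3 was above mutant replicate 1. Dmp1 stood at 0.14, -0.61 and 0.46 in control and 0.09, -0.70 and 0.06 in mutant, so mutant replicates 1 and 3 were near control replicate 1 while their osteoblast means were lower than that of any control. With the list mean as a covariate, the log2 change of Dmp1 became 1.06 ± 0.10 (limma adjusted p = 0.0970), that of Ibsp 0.48 ± 0.16 and that of Spp1 0.41 ± 0.15 (limma adjusted p of 0.999 for both). In this fit Phex had 0.84 ± 0.14 (limma adjusted p = 0.647) and Mepe 1.02 ± 0.28 (limma adjusted p = 0.999). Dspp had -3.96 ± 1.249 in it, against -1.31 without the covariate (limma adjusted p = 0.999). It called 2 of all tested genes, none of them a member. The covariate itself differs between the groups, so it and the genotype are only partly separable in 6 libraries.

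**Figure D5:**
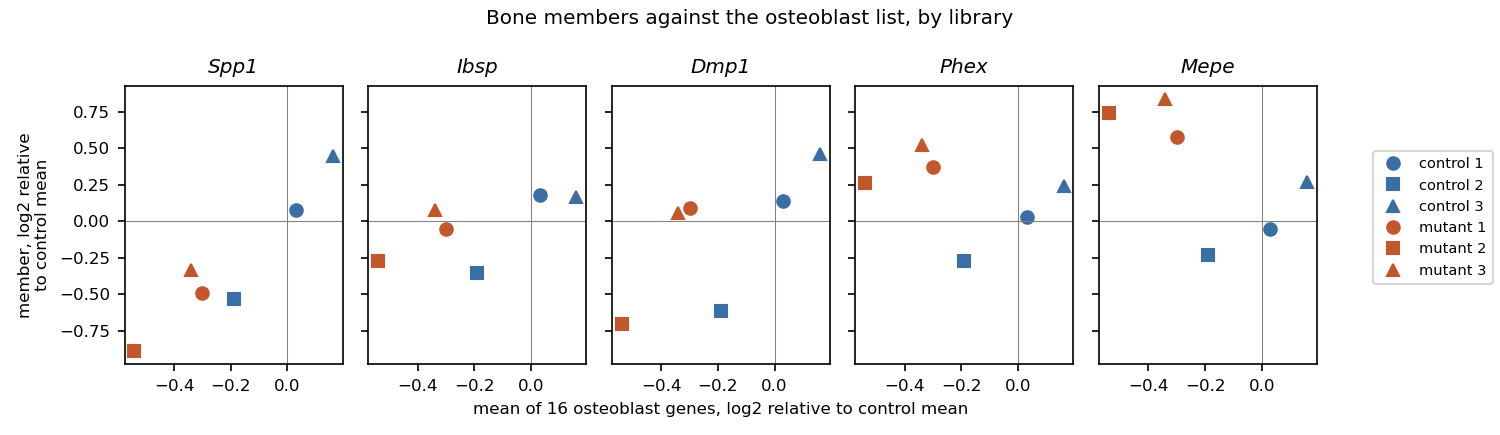
Log2 level of 5 members in each library (vertical axis) against the mean of the 16 osteoblast genes (horizontal axis), both relative to the control mean. The osteoblast mean of the 3 mutants lies at -0.30, -0.54 and -0.34, to the left of the 3 controls. Mepe and Phex are above the controls there, and Spp1 in the mutants lies at -0.49, -0.89 and -0.33.

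Among 10 other osteocyte genes, 9 were tested, 6 with positive and 3 with negative changes (median 0.09). Sost, the gene of sclerostin, a Wnt antagonist secreted by mature osteocytes, rose from 2.42 ± 0.262 to 8.19 ± 1.84 FPKM (SD, n = 3 each), with a log2 change of 1.41 ± 0.15 (limma adjusted p = 0.0228). It was the only osteocyte gene called. Ptprz1, a receptor phosphatase of osteocytes chosen after its values were seen, measured 7.02, 6.34 and 6.30 FPKM in control and 9.65, 8.95 and 10.6 FPKM in mutant (limma adjusted p = 0.0795). Including Sost and Ptprz1, 3 of 9 had mutant values above all controls, the third being Ackr3, against 7.85% of tested genes. Fbln7, also chosen after its values were seen, had the largest of the 3 negative changes, at -0.57 ± 0.25 on the log2 scale (limma adjusted p = 0.448), and its groups overlapped. The Sost call (adjusted p up to 0.511 over the alternatives) was lost with no filter, without any 1 library but mutant replicate 2, and with sex, the osteoblast list or the muscle list as a covariate.

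Fgf23, named here outside the rule for named genes, the phosphate-lowering hormone that osteocytes make and that PHEX and DMP1 restrain, was low. Its level was 0.11, 0.33 and 0.12 FPKM in the controls (replicates 1 to 3) and 0.06, 0.06 and 0.08 FPKM in the mutants (same order). Every mutant value of Fgf23 was below every control value, against 9.16% of tested genes, while Sost was higher in mutant. Values this near 0 can rest on very few fragments, which were not recovered for Fgf23, so no direction is read from them. The mean of Fgf23 was under the filter, so it was not tested. Of 15 genes of phosphate and mineral handling, 11 were tested, with 1 positive and 10 negative changes, against 50.8% negative over all tested genes. Limma called 0 of them, and 3 had an unadjusted p under 0.05, against 11.3% of tested genes. Vdr, the vitamin D receptor gene, measured 14.5, 10.6 and 14.1 FPKM in control and 20.1, 18.5 and 19.8 FPKM in mutant, a log2 change of 0.55 ± 0.11 (limma adjusted p = 0.160). Enpp1, which makes the mineral inhibitor pyrophosphate, measured 19.6, 16.2 and 22.0 FPKM in control and 13.7, 12.4 and 13.4 FPKM in mutant, a log2 change of -0.51 ± 0.11 (limma adjusted p = 0.168). Fam20b, named after its values were seen, went from 27.1 ± 1.22 to 23.6 ± 0.468 FPKM (SD, n = 3 each, limma adjusted p = 0.269). Groups did not overlap for these genes, 1 higher (Vdr) and 2 lower in mutant, against 7.85% and 9.16% of tested genes.

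Proteases that cut SIBLING proteins and receptors that bind the members formed a list of 22 genes, of which 16 were tested. There were 9 positive and 7 negative changes (median 0.03), 0 called by limma and 2 at an unadjusted p under 0.05, against 11.3% of tested genes. Itga8 and Itga4, the α-subunit genes of integrins that bind osteopontin, differed by 0.22 ± 0.065 and 0.44 ± 0.13 on the log2 scale (limma adjusted p = 0.289 and 0.301).

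Other cell types that make these proteins were measured by marker lists. Osteoclast genes, of cells that also make osteopontin, summed to 322 to 530 FPKM in control and 368 to 433.5 FPKM in mutant, with 0 of 8 called and 0 at an unadjusted p under 0.05. Macrophage genes summed to 116.5 to 138 FPKM and 131 to 142 FPKM, with 0 of 8 called and 1 at an unadjusted p under 0.05, against 11.3% of tested genes. All 8 had positive log2 changes (median 0.11), while 50.8% of all tested genes had negative ones. Of 7 hypertrophic chondrocyte genes, a cell type that makes Ibsp and Spp1, Col10a1 alone was called, with a log2 change of 4.84 ± 0.12 (limma adjusted p = 1.18e-05), a call kept in 20 of 20 alternatives. In this list 5 of 7 had an unadjusted p under 0.05, against 11.3% of tested genes, and 3 had mutant values above and 2 below all controls, against 7.85% and 9.16%. The 2 lower were Mmp13, a collagenase gene, with 76.2 ± 35.5 FPKM in control and 37.7 ± 3.22 FPKM in mutant (SD, n = 3 each, limma adjusted p = 0.318), and Scin, at -0.59 ± 0.14 on the log2 scale (limma adjusted p = 0.219), both named after their values were seen. The list summed to 154 to 226 FPKM in control and 205 to 238 FPKM in mutant. Of 12 cartilage genes, 6 were called lower, against 0.203% of tested genes, and 12 of 12 had mutant values below every control value, against 9.16%. Epyc, a cartilage proteoglycan gene, fell by 1.97 on the log2 scale (limma adjusted p = 0.000567), with a call lost only with the osteoblast list as a covariate (0.0970). Matn1, which encodes a cartilage matrix protein, fell by 2.68 on that scale (limma adjusted p = 0.0121, and up to 0.936 over the alternatives). Leaving out any single control, or mutant replicate 1, reduced these 6 calls to 1, and leaving out mutant replicate 3 raised them to 10. They numbered 2 with no filter, without trend or with robust eBayes, 1 when adjusted for sex or for the muscle genes, and 0 when adjusted for the osteoblast genes.

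For Pdpn, lymphatic endothelial genes summed to 42.3 to 44.5 FPKM in control and 40.7 to 59.5 FPKM in mutant, with 0 of 5 called and 0 at an unadjusted p under 0.05. Keratinocyte genes summed to 489 to 685 FPKM in control and 804 to 814 FPKM in mutant, with 0 of 6 called, 4 at an unadjusted p under 0.05 (11.3% of tested genes) and 4 with mutant values above all controls (7.85% of tested genes), and Krt15 had a log2 change of 0.48 ± 0.09 (limma adjusted p = 0.136). Of these 6, 5 had positive changes and 1 a negative one. Without control replicate 1, 1 of the 6 was called, against 20 of 14774 tested genes. Neuron genes summed to 207 to 273 FPKM and 164 to 235 FPKM, with 0 of 4 called and 0 at an unadjusted p under 0.05. Skeletal muscle genes summed to 484 to 772.5 FPKM in control and 724 to 1820 FPKM in mutant, with 0 of 10 called, 6 at an unadjusted p under 0.05 and 5 with mutant values above all controls, against 11.3% and 7.85% of tested genes. All 10 muscle genes had positive log2 changes (median 0.89), while 50.8% of all tested genes had negative ones. The part of these cell types in the levels of the members was not tested.

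Genes next to the SIBLING cluster were compared too. The 3 nearest tested genes on each side were Hsd17b11, Nudt9 and Sparcl1 before it and Pkd2, D930016D06Rik and Zfp951 after it. Their log2 changes ran from -0.083 to 0.065, limma adjusted p from 0.772 to 0.963, and the groups overlapped for 6 of 6.

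For each member the genes with the most similar profile over the 6 libraries were sought among 11199 genes averaging 5 FPKM or more, by the root mean square difference of centred log2(FPKM + 1) values. Nearest to Mepe were Pthlh (0.157), AU021063 and Hhip (both 0.162). AU021063 and Hhip were, like Pthlh, called higher (limma adjusted p = 0.0330 and 0.00822). A like difference between the groups is enough to bring profiles close by this measure, so nearness shows no link between genes. Pthlh encodes the ligand of the floxed receptor and rose from 6.63 ± 0.594 to 11.6 ± 0.668 FPKM (SD, n = 3 each, limma adjusted p = 0.0228). That call was lost under the same alternatives as the Sost call, with adjusted p up to 0.336. Nearest to Phex were Srpx2 (0.060), Frzb (0.070) and Serpinb1b (0.106), of which Frzb encodes a secreted Wnt antagonist.

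Spp1 was nearest to Slc13a5, a citrate transporter gene (0.162), Gm11627 (0.176) and Tnn (0.210). Ibsp was nearest to Col13a1 (0.054), Slc36a2 (0.080) and 1700001L19Rik (0.082). Dmp1 had Ccdc67 (0.197), the osteoclast gene Atp6v0d2 (0.227) and Spp1 itself (0.228) as its neighbours. Near Fam20c were Ank, which exports pyrophosphate (0.028), and Epdr1 (0.031). Dspp was closest to Snora70 (0.620), Ambn (0.685) and A730008H23Rik (1.07), and Pdpn, which varied least, to Pla2g7 (0.015), Ost4 (0.016) and Ddx19a (0.027). These distances rest on 6 libraries and share their depth and tissue makeup.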

How the data were processed

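The authors deposited FPKM values, 1 per gene symbol and library, per the file headers. The submitters' processing notes name Cuffdiff 2.2.1, TopHat2 2.1.1, SAMtools 0.1.18, Bowtie2 2.2.8 and build mm10. A stranded mRNA kit was used on TRIzol-extracted RNA, per the labels' protocols. For annotation, filters and strand setting, the sources used here give nothing.

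The fit was limma 3.58.1 under R 4.3.3 (lmFit, eBayes with trend, two-sided, no covariate) to log2(FPKM + 1), mutant minus control. It covered the 14766 genes averaging 1 FPKM or more, with Benjamini-Hochberg adjustment over all of them, a threshold of 0.05 and 4 residual degrees of freedom. No count model was applied to FPKM. Tested on simulated data for this comparison (14766 genes), it recovered 89.8% of the 2-fold changes. The changed genes were drawn at random and given independent normal noise, so this share is an average over genes. It is not the power for the members, whose SE ran from 0.07 (Pdpn) to 0.91 (Dspp). Pearson r between libraries across genes was 0.9645 to 0.9791, and 0 of 15 pairs were identical. Depth came from ratios of low FPKM values and GENCODE transcript lengths.

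The members and lists were chosen with earlier results of these data known. Other genes were named by rule: called genes of each list (up to 4) or else the 2 of smallest p, the 3 nearest profiles per member, the genes beside the cluster, Pth1r, Pthlh and Xist. Not every gene the rule gives is printed, and Col1a1, Sp7, Ddx3y, Fgf23, Fam20b, Ptprz1, Ackr3, Fbln7, Odam, Amtn, Mmp13 and Scin were named outside it. The motif search was first run on a longer window with a further TATA motif. Both were changed after the matches were seen. Fragment recovery was also tried for Fgf23, whose values did not come out whole. Another 20 settings of pseudocount, filter, scaling, variance model, weights, threshold, covariates and left-out libraries were tried.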

Additional observations from a re-analysis of the deposited data

How the results depend on the processing

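Mepe and Phex kept positive changes in every setting that tested them (19 and 20). Dspp kept a negative change in 19, with a call only without control replicate 3. The count of members called was 0 in the main analysis and 0 to 1 when a library was left out, and 0 in all other settings. The count over all tested genes, 39, was 18 with no filter, 19 without trend, 71 with library weights, 80 at an adjusted p under 0.1, 10 with sex, 2 when adjusted for the osteoblast list, 4 when adjusted for the muscle list, and 17 to 44 when a library was left out. The sign of a change turned in 13 cases. For Ibsp it became 0.015 with quantile normalization, 0.011 on leaving out control replicate 1, 0.0088 on leaving out control replicate 3, 0.018 on leaving out mutant replicate 2 and 0.48 with the osteoblast list. For Dmp1 it became 0.048 on leaving out control replicate 3, 0.076 on leaving out mutant replicate 2, 0.090 with sex, 0.087 with the muscle list and 1.06 with the osteoblast list. It became 0.0056 for Pdpn without mutant replicate 1, and 0.41 for Spp1 and 0.12 for Fam20c with the osteoblast list. Over left-out libraries the lowest values were -0.252 for Ibsp, -0.488 for Dmp1 and -0.112 for Pdpn. The cause was not tested. No scaling moved the median of all genes by over 0.1. Mepe rested on 10 to 34 fragments a library. No paired analysis was made because the labels give no pairing of control with mutant libraries, and the replicate numbers used here follow the order of deposition.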
